A study of Homo sapiens with 4 samples.

Results

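Of the GATA2 peaks called in asynchronous K562 cells, 401 of 31777 (1.26%) held a CTCF core in their hg38 sequence, and of the peaks called in mitotic K562 cells, 14 of 1648 (0.850%) did. These CTCF-core peaks were chosen by sequence alone, at any distance from genes. The core is an 11-base stretch of the CTCF motif in which 4 positions each allow 2 bases, which gives 16 possible strings, and it was searched on both strands. Peaks of either list were called bookmarked where they had 1 base or more in common with the other list, and asynchronous peaks without such overlap were called asynchronous only. Of the 401 CTCF-core peaks, 19 were bookmarked and 382 were asynchronous only. All 14 mitotic peaks with a core shared bases with an asynchronous peak that held the core as well. The rule used no measured value, other than that each interval had been called as a GATA2 peak. It was chosen with earlier results of these data known.

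K562 is an established human cell line from a chronic myeloid leukaemia. GATA2 was measured by ChIP-seq, in which DNA crosslinked to a protein is pulled down with an antibody and sequenced, in 1 library from asynchronous cells and 1 from mitotic cells. Both cultures were fixed with disuccinimidyl glutarate and then formaldehyde, the labels name no genetic change in either, and both libraries were made with the same GATA2 antibody (sc-9008). The mitotic cells had been arrested with nocodazole, which blocks the spindle, and sorted by MPM-2 staining, and material from several rounds of sorting was pooled. The labels put contamination of the mitotic cells with asynchronous cells under 10%. The lists give the start and end of each peak and no height, score or read count, so the depth of each library is unknown and peak strength can be described only by width. With 1 library per condition no difference has a replicate check and no test was made. All intervals in brackets are 95% intervals that cover counting error only. They treat peaks as independent, and also cores, pairs of cores and motif matches where those were counted, even within 1 peak.

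CTCF is a zinc-finger protein that binds a long, non-palindromic motif and is known for insulating enhancers from promoters and, with the ring-shaped complex cohesin, for anchoring chromatin loops. Loops form mostly between CTCF motifs that point towards each other. In mitosis these loops are lost. GATA2 is a zinc-finger factor of blood stem and progenitor cells that binds the short motif WGATAR, where W is A or T and R is A or G. CTCF itself was not measured in these libraries, so a core marks a sequence and not a CTCF-bound site.

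The sequences below show how core and GATA motif stood to each other. The first 3 are whole mitotic peaks, on the plus strand of hg38, with every WGATAR match and every core in capitals. GATA2 (chr3:128496690-128496969) and CNNM2 (chr10:102963303-102963577) are shown because the core, which lay on the minus strand, directly adjoined a WGATAR match, so that both form 1 run of capitals. CCND3 (chr6:41936356-41936505) was the narrowest of the 14 and shows the more usual arrangement, with the core some distance away.
GATA2 mitotic peak: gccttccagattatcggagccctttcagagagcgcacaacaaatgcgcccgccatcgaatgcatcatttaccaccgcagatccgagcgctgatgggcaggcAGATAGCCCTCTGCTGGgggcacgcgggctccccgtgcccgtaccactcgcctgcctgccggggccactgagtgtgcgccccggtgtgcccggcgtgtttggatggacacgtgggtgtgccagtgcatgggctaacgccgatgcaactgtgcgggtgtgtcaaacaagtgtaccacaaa
CNNM2 mitotic peak: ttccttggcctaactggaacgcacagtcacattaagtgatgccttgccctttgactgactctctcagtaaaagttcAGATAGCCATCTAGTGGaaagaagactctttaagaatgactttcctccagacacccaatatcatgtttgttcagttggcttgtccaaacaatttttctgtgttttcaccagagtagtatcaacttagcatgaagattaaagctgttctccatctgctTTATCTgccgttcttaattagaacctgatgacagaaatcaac
CCND3 mitotic peak: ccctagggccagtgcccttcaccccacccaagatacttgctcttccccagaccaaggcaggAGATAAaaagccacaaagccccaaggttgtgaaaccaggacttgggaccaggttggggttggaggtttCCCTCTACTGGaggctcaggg

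For contrast, 2 asynchronous-only peaks are shown in the same way. PPP1R15B (chr1:204398616-204398795) was the narrowest peak in which a WGATAR match lay within 10 bp of the longer 13-base CTCF consensus. VPREB1 (chr22:22195435-22195637) held 2 cores and no WGATAR match.
PPP1R15B asynchronous peak: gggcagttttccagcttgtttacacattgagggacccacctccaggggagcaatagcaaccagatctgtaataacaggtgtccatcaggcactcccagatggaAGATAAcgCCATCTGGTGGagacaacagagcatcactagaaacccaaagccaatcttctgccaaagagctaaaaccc
VPREB1 asynchronous peak: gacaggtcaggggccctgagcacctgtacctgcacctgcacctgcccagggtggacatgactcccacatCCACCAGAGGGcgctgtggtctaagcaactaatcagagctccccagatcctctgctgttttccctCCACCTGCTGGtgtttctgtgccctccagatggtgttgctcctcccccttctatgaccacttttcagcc

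The 13-base consensus is the core followed by C and then A or G, and only 2 bookmarked peaks held it, HPSE2 and PITPNC1. Their cores are shown with 20 bases on each side, read on the strand of the core, with the core in capitals. Next to them stand the bookmarked cores of SLC6A9 and LRRN2, which lack the C directly after the core.
HPSE2 (chr10:98664625-98664675, minus strand): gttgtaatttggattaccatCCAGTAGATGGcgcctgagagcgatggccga
PITPNC1 (chr17:67374786-67374836, plus strand): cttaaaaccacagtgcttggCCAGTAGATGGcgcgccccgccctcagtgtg
SLC6A9 (chr1:44036029-44036079, minus strand): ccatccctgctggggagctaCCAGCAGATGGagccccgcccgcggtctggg
LRRN2 (chr1:204672621-204672671, minus strand): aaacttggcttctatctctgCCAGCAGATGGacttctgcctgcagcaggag

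The core was more frequent in GATA2 peaks than beside them. It was found in 1.26% of asynchronous peaks (1.14 to 1.39) and in 349 of 63554 sequences of the same widths 5 kb to each side (0.549%, 0.493 to 0.610), a ratio of 2.30 (1.99 to 2.65). In mitotic peaks the share was 0.850% (0.465 to 1.42) against 12 of 3296 flanks (0.364%), a ratio of 2.33 (1.08 to 5.03), so with 14 peaks the interval nearly reaches 1. Over the asynchronous peaks there were 38.9 cores per Mb within 100 bp of the midpoint and 13.6 per Mb at 1 to 2 kb. Over the full width of the peaks there were 30.5 per Mb. For comparison, hg38 as a whole held 11.2 cores per Mb, and 405 of its 32826 cores (1.23%) lay in GATA2 peaks. The peaks took up 13291507 of 2937639113 bp. Of RefSeq promoters, taken from 250 bases before to 50 after the start on GRCh38, 310 of 35116 (0.883%) held a core. These promoters were 300 bases long, shorter than most peaks, and a longer sequence holds a core more often. Their share therefore does not show whether peaks hold cores more densely than promoters do.

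As a check of the name, the bases beside the core were compared with those beside cores in the flanks. The core was followed by the 2 bases of the 13-base consensus in 138 of 405 cores in peaks (34.1%) and in 71 of 350 in flanks (20.3%), a difference of 13.8 points (7.44 to 19.9). The 13-base consensus was therefore further above its background than the core, with 138 of 31777 peaks (0.434%) against 71 of 63554 flanks (0.112%) and a ratio of 3.89 (2.92 to 5.17). A control string, the core with its front and back parts swapped, was also more frequent in peaks than in flanks, with 0.601% against 0.384% and a ratio of 1.57 (1.30 to 1.89), smaller than that of the core. The core read backwards was rarer in peaks, 0.466% against 2.01%. In flanks it was more frequent than the core (0.549%), so it is not a matched background for the core, and the cause was not tested. All 16 strings of the core occurred in peaks. The most frequent was CCAGCAGAGGG with 54 of the 405 cores (13.3%, against 16.0% of the cores in flanks).

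The share of CTCF-core peaks that were bookmarked differed from that of the other peaks by less than counting error. Of all asynchronous peaks 5.04% were bookmarked, and of the 401 CTCF-core peaks 19 were (4.74%, 2.88 to 7.30), against 1581 of 31376 other peaks (5.04%, 4.80 to 5.29). The difference was -0.301 points, with an interval from -2.00 to 2.25, so these lists do not tell a small difference in either direction from none. The value depended on the interval searched and the overlap asked for. With the core searched in the 200 bp around each midpoint 5 of 230 were bookmarked (2.17%), a difference of -2.88 points. Its interval (-4.15 to -0.0589) leaves out 0. That search reached past the edges of peaks narrower than 200 bp, so some of the 230 may hold no core inside the peak. It was not weighted for width. With a reciprocal overlap of 50% 7 of 401 were bookmarked (1.75%), a difference of -0.275 points (-1.19 to 1.54). Seen from the mitotic list, in which 97.5% of all peaks were bookmarked, all 14 CTCF-core peaks were. Bookmarked CTCF-core peaks made up 1.19% of the 1600 bookmarked peaks, and the core was held by 1.27% of the 30177 asynchronous-only peaks.

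Every bookmarked CTCF-core peak also held a GATA motif, as did 1552 of the 1581 other bookmarked peaks. With WGATAR in the peak 19 of 353 were bookmarked (5.38%, 3.27 to 8.28), and without it 0 of 48 (exact interval up to 7.40%), where the limit of 3 counts that a count of 0 allows is 6.25%. Within CTCF-core peaks the difference was 5.38 points, with an interval (-2.27 to 8.25) that holds 0. In the other peaks 5.32% of those with WGATAR and 1.33% of those without were bookmarked. The exact interval of the 48 CTCF-core peaks spans that 1.33%. Among peaks with WGATAR the CTCF-core peaks and the others therefore differed by 0.0659 points (-1.86 to 2.95), a comparison added after seeing the data.

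**Figure D1:**
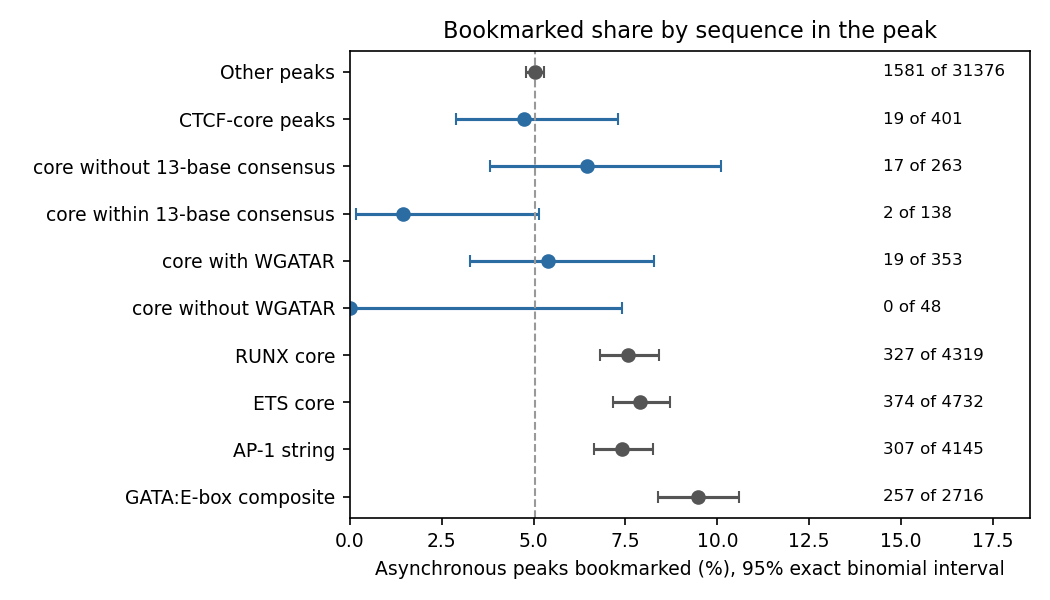
Share of asynchronous GATA2 peaks that were bookmarked (%, horizontal axis) by the sequence they hold. Points are shares, bars are exact binomial 95% intervals, the dashed line is the 5.04% of all asynchronous peaks, blue marks CTCF-core peaks and the counts stand at the right. CTCF-core peaks lie at the line with a wide interval, and those of them with the 13-base consensus at 1.45%.

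Bookmarking was less frequent in peaks with the longer consensus than in those with the core alone. Of the 138 peaks with the 13-base consensus 2 were bookmarked (1.45%, 0.176 to 5.14), against 17 of the 263 with the core alone (6.46%, 3.81 to 10.1), a difference of -5.01 points (-8.81 to -0.626). Peaks with the consensus also held WGATAR less often (79.7% against 92.4%, a difference of -12.7 points, -20.6 to -5.67) and were narrow, with a median of 312.5 bp. Within peaks that held WGATAR the shares were 2 of 110 (1.82%) and 17 of 243 (7.0%), a difference of -5.18 points, as large as over all CTCF-core peaks, with a wider interval (-9.31 to 0.0713). Against all asynchronous peaks without the consensus, with or without a core, the difference was -3.60 points, with an interval (-4.68 to 0.0868) that holds 0. With those peaks weighted to the widths of the consensus peaks their bookmarked share was 2.61% and the difference -1.16 points, and with WGATAR required in both groups as well it was 3.10% and the difference -1.28 points. Both weightings were chosen after seeing the data. The contrast with the 263 core-only peaks was not weighted for width. Against peaks without a core the unweighted difference was -3.59 points (-4.67 to 0.0987). With WGATAR required in both groups it was -3.50 points (-4.84 to 1.08). The weighted differences were smaller, but they have no interval and rest on 2 bookmarked peaks, and the cause was not tested. In the mitotic list 1 of 1648 peaks held the 13-base consensus (0.0607%, 0.00154 to 0.338), at HPSE2.

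Width went with bookmarking in CTCF-core peaks as it did elsewhere. The 19 bookmarked peaks had a median width of 629 bp, from 310 to 876, and the 382 asynchronous-only peaks one of 355.5 bp, from 135 to 1135, so the groups overlapped over the whole range of the bookmarked ones. The bookmarked other peaks had a median of 675 bp. Over all CTCF-core peaks the median was 361 bp (342 to 385), with quartiles of 263 and 499, and over the other peaks 378 bp (376 to 381). Of the 140 CTCF-core peaks of at most 302 bp none was bookmarked (exact interval up to 2.60%, limit of 3 counts 2.14%), against 0.192% of the other peaks of those widths. From 303 to 463 bp the share was 7 of 140 (5.00%) against 1.56%, a difference of 3.44 points (0.868 to 8.40). At 464 bp and above it was 12 of 121 (9.92%) against 13.3%, a difference of -3.40 points (-7.61 to 3.25). The middle widths thus held more bookmarked CTCF-core peaks than their background and the wide ones did not, on 7 and 12 peaks.

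**Figure D2:**
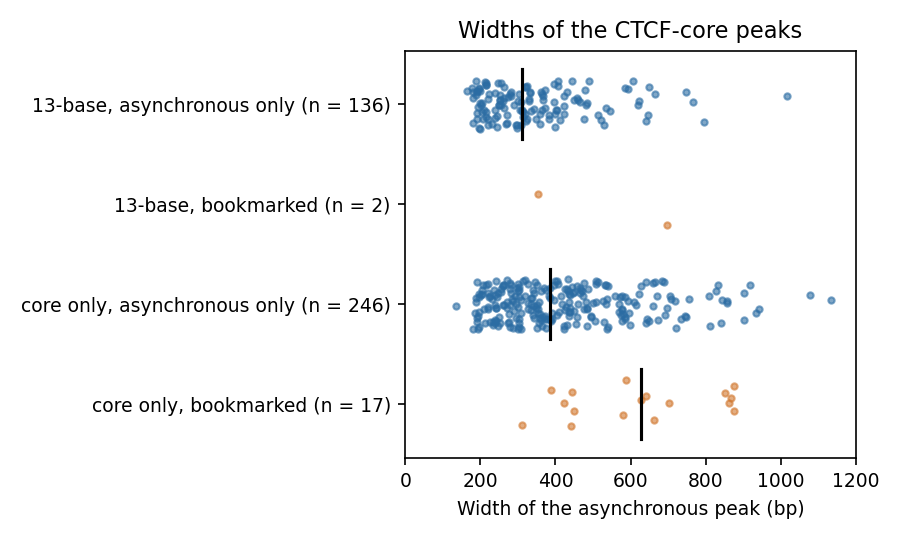
Width of each of the 401 asynchronous CTCF-core peaks in bp, split by the 13-base consensus and by bookmarking. Each point is a peak, vertical scatter has no meaning, orange marks bookmarked peaks and black lines are medians (not drawn for 2 peaks). The bookmarked peaks lie between 310 and 876 bp, and asynchronous-only peaks with the consensus have a median of 311.5 bp against 385 bp for those with the core alone.

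In the 19 bookmarked peaks the mitotic interval covered a part of the asynchronous one, 5900 of 11638 bp (50.7%), and lay wholly inside it in 15. The core was inside the mitotic interval in 14 of the 19 (73.7%, 48.8 to 90.9) and WGATAR matches in 44 of 60 (73.3%, 60.3 to 83.9), with intervals that overlap widely. The 5 peaks whose core was not wholly inside were F11R, INMT-MINDY4, USP20, FSIP1 and PITPNC1. At F11R, which encodes a junctional adhesion molecule, all 4 WGATAR matches were inside the mitotic interval, and the far end of the core lay 267 bp beyond its edge. At INMT-MINDY4, a read-through gene, the core reached 236 bp beyond the edge, at FSIP1 179 bp and at PITPNC1, which encodes a phosphatidylinositol transfer protein, 171 bp. At USP20, which encodes a deubiquitinase, the core lay across the edge, with 6 of its 11 bases outside.

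The bookmarked peak at GATA2 lay 3157 bp upstream of the nearest start of that gene, in intron 1 of the antisense gene GATA2-AS1. The asynchronous peak (chr3:128496358-128496998) was 641 bp wide with a GC content of 63.5%, the highest of the 19. It held 4 WGATAR matches, of which the 280-bp mitotic peak kept 1, the match that adjoins the core in the sequence above. At CNNM2, which encodes a magnesium transport protein, the peak lay in intron 1 (chr10:102963226-102963854, 629 bp). It had the same arrangement of core and WGATAR, and its 275-bp mitotic peak kept 2 of 4 matches. In any orientation, WGATAR directly adjoined the core in 7 asynchronous peaks, of which GATA2 and CNNM2 were the 2 bookmarked and ESYT1, NR2F1, EPB41L4A, DTNBP1 and NOVA1 were not. The arrangement of GATA2 and CNNM2, a core directly followed on its own strand by CTATCT or CTATCA, occurred at 11 places in hg38, of which 3 lay in asynchronous GATA2 peaks (27.3%, against 1.23% of all cores in hg38), and 2 of these 3 peaks were bookmarked (against 5.04% of all peaks). The peak of that kind that was not bookmarked was nearest to NOVA1 (chr14:27672172-27672480, 309 bp), which encodes a neuronal splicing factor, at a distance of 1074139 bp. This arrangement was picked out after the values were seen, in part for these bookmarked peaks, and it includes a GATA motif, so 3 peaks, or 7 in any orientation, are too few and too selected to read against either share.

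At genes of the cell cycle and growth signalling, the peak at CCND3, which encodes cyclin D3, was 422 bp wide in intron 4 and its mitotic part 150 bp, with the only WGATAR match 62 bp from the core. The peak at PIK3CA, the catalytic subunit of a phosphoinositide kinase, lay 268 bp upstream of the nearest start, in intron 1 of PIK3CA-DT. It was 702 bp wide, and the mitotic peak of 199 bp kept its single WGATAR match and its core, 24 bp apart. The peak nearest to CDK15, a cyclin-dependent kinase gene, was 389 bp wide and lay 46978 bp downstream of the nearest start.

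Among genes of membrane proteins, the peak at SLC6A9, which encodes a glycine transporter, was 449 bp wide and lay 4414 bp upstream. The mitotic peak of 382 bp ran past one end of it. The peak nearest to CD24, which encodes a surface glycoprotein, lay 153025 bp from its start, the farthest of the 19, and its core stood 4.50 bp from the peak midpoint. LRRN2, which encodes a leucine-rich repeat protein, had the widest peak (876 bp, intron 1), 6 WGATAR matches and a mitotic peak of 841 bp that kept all 6 and the core. The peak nearest to LRRC55, which encodes an auxiliary subunit of a potassium channel, was 851 bp wide, and its core stood 174 bp from the nearest WGATAR.

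Among genes of transcription factors and regulators, CUX1, a homeobox gene, had the narrowest bookmarked peak (310 bp, intron 1), in which the core lay 124 bp from the nearest WGATAR. The peak nearest to HOXC12, another homeobox gene, was 867 bp wide, 5213 bp upstream, and its mitotic part of 192 bp covered 22.1% of it, the smallest share of the 19. HCFC2, which encodes a host cell factor, had a peak of 444 bp at 10904 bp. HPSE2 and DLEU7 are listed here outside that group. The peak at HPSE2, which encodes a protein related to heparanase, lay in intron 6 and was covered to 88.4% by its mitotic peak. The peak at DLEU7 was 579 bp wide and lay within DLEU7 and the lncRNA gene DLEU1, outside their canonical transcripts.

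CTCF-core peaks held fewer GATA motifs than the other peaks. WGATAR was found in 353 of 401 (88.0%, 84.4 to 91.0) against 29192 of 31376 (93.0%, 92.8 to 93.3), a difference of -5.01 points (-8.56 to -2.17). At least 2 matches were found in 57.4% against 66.9% (-9.54 points, -14.5 to -4.77). Per kb of peak there were 5.10 matches against 6.40. The number per peak was 2.08 ± 1.98 (SD over 401 peaks) against 2.68 ± 4.17 (SD over 31376 peaks). The bookmarked CTCF-core peaks held 5.16 per kb, the asynchronous-only ones 5.10 and the other bookmarked peaks 5.09, so per kb the bookmarked groups stood close. Per peak the bookmarked CTCF-core peaks held 3.16 ± 1.30 (SD over 19 peaks) and the other bookmarked peaks 3.62 ± 2.46 (SD over 1581 peaks). GC content moved with the core, with a median of 46.6% against 44.1%. With the other peaks weighted to the same width and GC content the difference in the WGATAR share was -3.74 points.

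The motifs of other blood factors gave no excess in CTCF-core peaks. The ETS string AGGAAGT was rarer, in 32 of 401 (7.98%) against 15.0% of the other peaks, a difference of -7.0 points (-9.31 to -3.91). For RUNX (AACCACA, 11.2% against 13.6%), AP-1 (TGANTCA with C or G at the N, 11.2% against 13.1%), the E-box CAGCTG (24.7% against 24.1%) and the GATA:E-box composite, the pair of sites bound by GATA factors with TAL1 (7.73% against 8.56%), the interval of the difference held 0. All were searched on both strands. The E-box ends in CTG, with which the composite begins, so 1 site can count for both. A peak can hold several of these strings, and the CTCF core, at 1.26% of peaks, was the rarest of them. Of asynchronous peaks with these other strings between 7.41% (AP-1) and 9.46% (composite) were bookmarked, all above the 5.04% of all peaks. The CTCF-core peaks stood at 4.74% (2.88 to 7.30). That interval overlaps those of AP-1 (6.63 to 8.25), RUNX (6.80 to 8.40), E-box (7.11 to 8.32) and ETS (7.15 to 8.71). It does not reach that of the composite (8.39 to 10.6). These shares were not weighted for width.

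Within the peak the core stood farther out than the GATA motif. With the distance from the midpoint taken as a percentage of the distance from midpoint to edge, the median was 48.3% (42.0 to 50.9) for the 405 cores and 29% (26.2 to 32.2) for the 834 WGATAR matches of the same peaks. The inner 40% held 172 cores (42.5%) and 520 WGATAR matches (62.4%), a difference of -19.9 points (-25.6 to -14.0). Cores of the 13-base consensus (41.3%) and cores in peaks without WGATAR (42.0%) were no nearer to the middle. The core was nearer to the midpoint than every WGATAR match in 71 of 353 peaks (20.1%, 16.1 to 24.7). The gap from core to nearest WGATAR had a median of 47.0 bp, with quartiles of 21.0 and 89.0, and was at most 20 bp in 87 peaks (24.6%) and at most 100 bp in 271 (76.8%).

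In 8 peaks a WGATAR match lay within 10 bp of the 13-base consensus, and none of the 8 was bookmarked, which is too few peaks to read against the 1.45% of all peaks with the consensus or the 5.04% of all peaks. They were nearest to ESYT1 (1016 bp wide, the widest), RORA, MDM4, TMEM260, NGDN, TMEM167A, IFI6 and PPP1R15B (180 bp). RORA encodes a nuclear receptor, MDM4 an inhibitor of p53 and PPP1R15B a regulatory subunit of a phosphatase of the stress response. No peak held 3 or more cores, and 4 held 2, nearest to CDC42BPA, SCIMP, WIPI1 and VPREB1, of which none was bookmarked, again too few to read against 5.04%. These 4 were named after their values were seen.

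The cores had no common direction. Of the 405 cores 211 (52.1%, 47.1 to 57.1) lay on the plus strand. Among 382 pairs of neighbouring cores on a chromosome 93 (24.3%, 20.1 to 29) pointed towards each other, the arrangement of loop anchors, and 95 (24.9%) away from each other. Neighbours were a median of 3878989.5 bp apart. In the 89 pairs within 1 Mb the counts were 25 (28.1%, 19.1 to 38.6) and 20 (22.5%, 14.3 to 32.6), which differ by less than their intervals.

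CTCF-core peaks lay at promoters (within 3 kb of a start of a protein-coding gene) in 81 of 401 (20.2%, 16.4 to 24.5), against 20.5% of the other peaks. They lay in introns in 33.7% against 38.2% (-4.54 points, -9.03 to 0.246) and outside protein-coding genes in 43.9% against 39.3% (4.57 points, -0.233 to 9.50), so both differences were within counting error. Of the 19 bookmarked peaks 4 were at promoters, 7 in introns and 8 outside protein-coding genes. The CTCF-core peaks stood more alone, with a median of 15420 bp (11944 to 17936) to the nearest other asynchronous peak against 8926 bp (8743 to 9137). The 19 bookmarked ones had a median of 2914 bp, with an interval from 1001 to 14431, and the 382 asynchronous-only ones 15928 bp (12729 to 18721). The bookmarked other peaks were also closer to a neighbour than the other peaks as a whole, with a median of 6105 bp (5508 to 6706). By chromosome the share of peaks with a core was highest on chromosome 17 (25 of 1371, 1.82%, 1.18 to 2.68) and, where any was found, lowest on chromosome 21 (2 of 414, 0.483%, 0.0586 to 1.73).

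The 401 peaks were nearest to 390 protein-coding genes. Of these 379 had 1 such peak and 11 had 2, and none had more. The 11 were CD24, CNTNAP2, CSMD3, EPB41L4A, FAM171A1, GALNT7, IGLL5, KIAA0513, KMT2C, P2RY2 and WIPI1. GALNT7, which encodes a glycosyltransferase, had the most asynchronous GATA2 peaks of the 11, with 26, and IGLL5, an immunoglobulin lambda-like gene, had 2, both with the core. Only CD24 among them had a bookmarked CTCF-core peak.

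GATA2 peaks nearest to genes of CTCF and cohesin were too few to set apart from the rest. Of 20 genes of CTCF, cohesin, its loaders and removers and further looping factors, 13 were nearest to at least 1 asynchronous peak, with 37 peaks in all. Of these 37, 1 held a core (2.70%, 0.0684 to 14.2, against 1.26% of all asynchronous peaks) and 1 was bookmarked (2.70%, against 5.04%), and the interval spans both backgrounds. The core was in a peak 4194 bp beyond SMC3, a ring subunit of cohesin (chr10:110610242-110610542, asynchronous only), and the bookmarked peak was at HDAC8, the deacetylase of SMC3. CTCF and its testis-expressed relative CTCFL were nearest to no asynchronous peak. STAG1, a cohesin subunit, had 11 peaks and PDS5A, a cohesin regulator, 7, and none of these held a core. RAD21, SMC1A, STAG2, NIPBL, PDS5B, ESCO2, YY1, ZNF143 and LDB1 had 1 or 2 peaks each without a core, and MAU2, WAPL, CDCA5, ESCO1 and MAZ had none. No CTCF-core peak lay within 100 kb of the alpha or beta globin genes. There HBE1 and HBZ had 4 GATA2 peaks each and HBB and HBD 1 each. These are too few to read against the 1.26% of all asynchronous peaks that held a core.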

How the data were processed

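The values used were the deposited peak positions, 1 list of chromosome, start and end per GATA2 library, which the authors made from reads on hg38. The submitters' processing notes name BWA 0.7.12, MACS2 2.1.0, Genrich 0.6.1 and deepTools 2.5.4, and how the calls of the peak callers were combined is not given in the sources used here. Input libraries were not used here. Since depth is unknown, a site without a mitotic peak may be under the limit of detection.

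The genes named were those with the nearest protein-coding start (GENCODE release 44) to bookmarked CTCF-core peaks, to peaks with several cores or with a WGATAR match within 10 bp of the 13-base consensus, with most CTCF-core peaks, or on the CTCF, cohesin and globin lists. Members and lists were chosen with earlier results of these data known. Motifs were matched as strings in the reference sequence. Shares have exact binomial intervals, differences Newcombe and ratios log intervals, and medians intervals from order statistics, all at 95%. For width and GC content the other peaks were weighted by bins. Steps were tested on simulated data. Sequences were read with pysam 0.24.0 and figures drawn with matplotlib 3.10.9, in Python 3.11.15 with scipy 1.17.1 and numpy 2.4.6. Alternatives changed the string, the interval searched, the overlap rule, the peaks compared, the flanks and the promoter distance.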

Additional observations from a re-analysis of the deposited data

How the results depend on the processing

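Of 53 alternative values 30 kept within the interval of the reported one, 22 moved and 1 reversed. The reversed value was the ratio to flanks of the core read backwards, 0.232, a string that is not a matched background for the core. With the 13-base consensus the share of asynchronous peaks was 0.434%, of mitotic peaks 0.0607%, the ratio to flanks 3.89, the bookmarked share 1.45%, its difference from other peaks -3.60 points (-4.68 to 0.0868) and the WGATAR difference -13.3 points. With a looser core the shares were 2.20% and 1.52% and the ratio 1.91. In the 200 bp around the midpoint the share was 0.724%, the ratio 2.88, the bookmarked share 2.17%, its difference -2.88 points (-4.15 to -0.0589) and the WGATAR difference -9.57 points. That search reached past the edges of peaks narrower than 200 bp. With 100 bp added on each side the share was 1.67%. With a reciprocal overlap of 50% the bookmarked share was 1.75%, and in peaks at or above the median width it was 9.14% and the ratio 1.62. Promoters took 9.98% at 1 kb (other peaks 10.2%) and 28.4% with the starts of every annotated gene (29.6%). 5 alternatives were chosen after seeing the data. The core with its parts swapped gave a ratio of 1.57, and weighting to width a WGATAR difference of -11.7 points for the consensus. The bookmarked difference was 0.0659 points in peaks with WGATAR, -1.16 for the consensus weighted to width and -1.28 for the consensus with both. Stricter strings and shorter intervals hold fewer peaks by construction, and for the other shifts the cause was not tested. No paired analysis was possible because each condition has 1 library, and leaving out a library would leave no comparison.

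Bookmarked shares rest on 19 peaks, and on 2 for the 13-base consensus. A string is a coarse stand-in for a CTCF motif, CTCF binding was not measured, and the lists give no depth.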
